A study of Mus musculus with 14 samples.

Results

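Of 14 single cells picked from digested adult mouse bone, 4 carried much RNA of neutrophil genes, and these cells (numbers 6, 8, 11 and 14) are described here against the other 10. They were chosen by their mean level over 10 genes, Ltf, Camp, Ngp, Mpo, Elane, Lcn2, Retnlg, Mmp8, Chil3 and Ly6g, with a mean of 7.5 or more. Levels are log2 values read as log2(FPKM + 1), where FPKM is fragments per kilobase of transcript for a fixed number of mapped fragments, with the same distribution in every cell. All 14 cells came from C57BL/6 mice of the genotype Prrx1-CreERT;Tomato, in which tamoxifen activates a Cre recombinase made from the Prrx1 promoter of limb mesenchyme and so turns on a red reporter. Every animal received 2 mg tamoxifen per 30 g of body weight daily for 3 days. The marrow was flushed from tibiae, radii and ulnae before digestion, and sorted red cells were picked one by one. The labels form 1 group, name no animal and include no untreated cells. The cells therefore count as 1 sample, no test was made, and every difference below describes these cells only.

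Neutrophils are made in the bone marrow and pack their antimicrobial proteins into granules in a fixed sequence. Primary granule proteins such as myeloperoxidase and elastase are made first, secondary granule proteins such as lactoferrin and cathelicidin follow, gelatinase comes later, and chemotactic receptors mark the mature cell. Stromal cells of bone instead make collagens and small proteoglycans, and osteoblasts, the bone-forming cells, add proteins of mineralized matrix.

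The cells fell into 2 sets by which genes were listed at 0, and the labels name no reason for it. Over the 4147 rows above 0 in 2 to 12 cells, the median correlation of presence was 0.21 within the sets and 0.02 between them. Cells 6, 8 and 14 were in the larger set with 6 others, and cell 11 was in the smaller set with cells 3, 4, 12 and 13. Between 7304 and 8027 rows were above 0 in a cell.

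Scores in cells 6, 14, 11 and 8 were 10.26, 9.26, 8.81 and 7.52. Cell 8 was the nearest to the cutoff from above. The nearest from below was cell 12, at 5.58, and the lowest score was 2.35 in cell 4. Ltf (lactoferrin) was at 10.50, 7.39, 9.79 and 11.02 in cells 6, 8, 11 and 14, and ran from 0.92 through a median of 4.84 to 6.67 in the others. Ly6g, the surface antigen used to sort neutrophils, was at 10.67, 7.37, 9.80 and 8.17, against 0.34, 1.48 and 5.08 for the lowest, median and highest of the others. Camp (cathelicidin) overlapped between the groups, with 9.70 in cell 8 and 11.52 in cell 12, and no cell was below 6.44. Ngp also overlapped, at 8.73 in cell 8 and up to 9.30 in the others. The marker genes Lcn2 and Retnlg did not overlap, their lowest levels in the 4 cells being 9.97 and 12.28 and their highest in the others 9.51 and 10.62. The 4 marker genes Camp, Ngp, Retnlg and Lcn2 were thus high in the chosen cells, and Camp and Retnlg were above 5 in every cell. The 10 genes chose the cells, so their separation is not a finding.

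**Figure D1:**
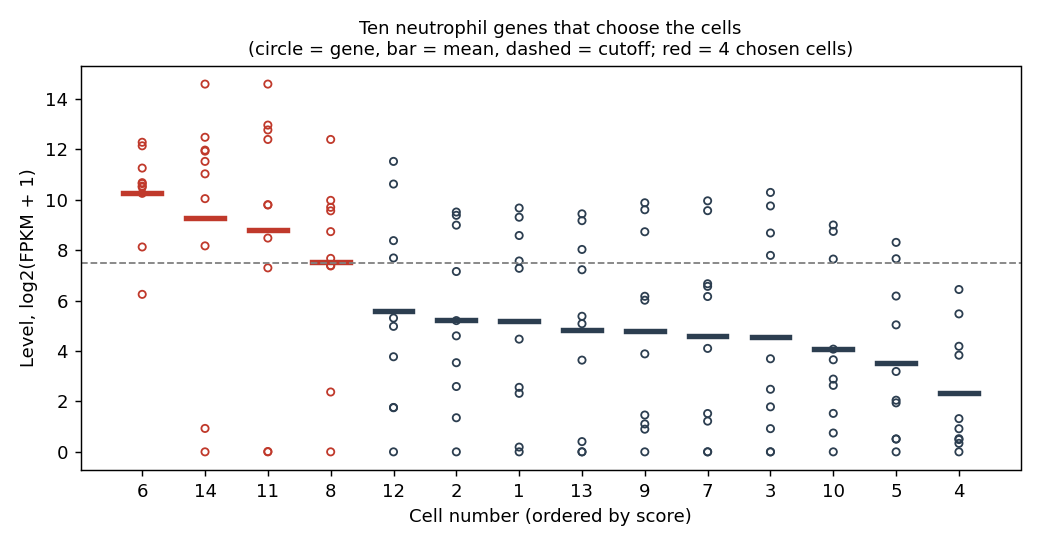
Levels of the 10 genes that chose the cells (circles) and their mean (bars) on the log2(FPKM + 1) axis, with cells ordered by the mean and the cutoff dashed. The 4 chosen cells have means from 7.52 to 10.26, and the other 10 from 2.35 to 5.58.

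Primary granule genes set cell 6 apart within the group. Mpo (myeloperoxidase) was at 11.25 in cell 6 and at 0.00, 0.01 and 0.93 in cells 8, 11 and 14. Elane (neutrophil elastase) was at 8.13 and 2.37 in cells 6 and 8 and at 0 in cells 11 and 14. Other genes of the same stage did not accompany them. Prtn3 (proteinase 3), Ctsg (cathepsin G) and Ms4a3, a gene of granulocyte precursors, were listed at 0 in all 4 cells, and Ctsg reached 5.60 and Ms4a3 4.27 in cell 4, the cell with the lowest score. Of the 6 measured genes of the primary granule and early myeloid list, which leaves out Mpo and Elane, 0 were higher in all 4 cells. Over all rows outside the 10 genes, 0.315% were. Without Mpo and Elane in the score, the same 4 cells had the highest means.

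Across the 9532 rows outside the 10 genes, 30 were higher in all 4 cells than in any of the other 10 (0.315%), and 7 were lower (0.0734%). The cells were chosen by values of the same table, so nothing is read from these counts. Of the 30 rows, 13 belonged to the gene lists. The gene with the widest gap was Il1b (ENSMUSG00000027398, chromosome 2, 129364570 to 129371139, minus strand, GRCm38), which encodes the inflammatory cytokine interleukin-1 beta. It was at 7.58, 5.82, 8.63 and 8.42 in cells 6, 8, 11 and 14, and at 0.39, 1.33 and 2.40 for the lowest, median and highest of the others. Slpi, a secreted inhibitor of neutrophil proteases (ENSMUSG00000017002, chromosome 2, 164354070 to 164389095, minus strand), followed. Its levels were 10.90, 10.49, 11.70 and 12.28, against 1.68, 4.39 and 7.14. Leaving a cell out can only add separated rows, so the 30 rows stay by construction and nothing is read from their staying. The count of higher rows was 107, 69, 62 and 45 without cells 6, 8, 11 and 14. The count of lower rows became 21, 19, 35 and 22 without cells 6, 8, 11 and 14, and lay between 9 and 16 when one of the others was left out.

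The 250 bases before the RefSeq start of Il1b, Slpi and the marker gene Ngp are shown because the first pair had the widest gaps and Ngp is a granule gene of the score. They were taken from the RefSeq promoter table (GRCm38.p6), on the gene's strand from 5′ to 3′. RefSeq and GENCODE place the starts of Slpi and Ngp differently, so the Slpi window lies inside the GENCODE gene span given above, and the Ngp window runs past the GENCODE start at 110419747. Capitals mark the letters TTGCNNAA on either strand, a pattern of the kind bound by C/EBP factors of the granulocyte lineage. The pattern GAGGAA, of the kind bound by PU.1, was searched on both strands and was found in none of these windows. Over 32851 promoter windows of this length, 9.56% held TTGCNNAA and 23.3% held GAGGAA. Slpi had 1 match, Ngp had 2 and Il1b had 0.
Il1b, chr2:129371140-129371389, minus strand: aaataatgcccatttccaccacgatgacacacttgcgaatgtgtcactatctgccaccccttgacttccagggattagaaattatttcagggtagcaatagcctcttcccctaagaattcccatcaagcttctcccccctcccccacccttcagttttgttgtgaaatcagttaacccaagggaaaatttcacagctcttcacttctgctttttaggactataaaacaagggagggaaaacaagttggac
Slpi, chr2:164356508-164356757, minus strand: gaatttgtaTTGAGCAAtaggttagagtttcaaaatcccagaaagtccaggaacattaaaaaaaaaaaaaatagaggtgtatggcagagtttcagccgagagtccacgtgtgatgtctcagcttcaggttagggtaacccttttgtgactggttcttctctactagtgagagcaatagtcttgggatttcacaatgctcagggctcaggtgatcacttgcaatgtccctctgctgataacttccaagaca
Ngp, chr9:110419558-110419807, plus strand: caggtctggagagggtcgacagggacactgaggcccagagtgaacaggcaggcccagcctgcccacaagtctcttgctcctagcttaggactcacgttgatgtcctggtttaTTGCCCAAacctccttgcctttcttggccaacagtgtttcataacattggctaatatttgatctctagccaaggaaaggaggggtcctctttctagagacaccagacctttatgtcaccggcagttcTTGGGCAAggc

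The means of the secondary and tertiary granule list and of the mature neutrophil list were above those of all the others in cells 8, 11 and 14, and within their range in cell 6. The mean of the primary granule and early myeloid list was within the range of the others in all 4 cells. Of 45 measured genes in the 3 lists (primary granule, secondary and tertiary granule, mature neutrophil), 5 were higher in all 4 cells, against 0.315% of all rows. These were Slpi, Wfdc21, Il1b, Clec4e and Trem3, the last by 0.08 and detected at 1 or more in 2 of the 4. The median of the 4 cells exceeded that of the others by at least 1 in 32 of the 45 genes and was lower by at least 1 in 2, where over all rows 17.8% and 14.7% were that far apart. The median difference over the 45 genes was 2.76, against 0.00 over all rows. It was 4.44 without cell 6 and 0.96 without cell 14. Cells 6, 8, 11 and 14 had 8, 16, 23 and 35 of the 45 genes at 5 or more, and the others had 3 to 8. By this count cell 6 was within the range of the other 10, although its score was the highest. That score included Mpo at 11.25 and Elane at 8.13, against at most 0.93 and 2.37 in cells 8, 11 and 14. Without Mpo and Elane its mean was below those of cells 11 and 14.

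Secondary and tertiary granule genes divided the 4 cells. Mmp9 (gelatinase B) was at 3.31, 6.68, 7.65 and 9.29 in cells 6, 8, 11 and 14, and reached 5.86 in the others. The haptoglobin gene Hp was at 2.42, 5.65, 8.08 and 9.34, with up to 5.17 in the others. Pglyrp1, a peptidoglycan recognition protein of granules, was at 0 in cell 6 and at 4.81, 8.12 and 7.27 in cells 8, 11 and 14. Cell 6 thus held high Ltf, Ngp and Ly6g with low Mmp9, Hp and Pglyrp1. Wfdc21 was at 11.49 to 13.56 in the 4 cells and reached 11.17 in cell 3. Not every granule gene was higher. The granule membrane protein gene Cd63, which many cell types express, was at 8.09 to 9.43 in the 4 cells and 9.30 to 12.28 in the others.

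Genes of the mature neutrophil list fell into different combinations of cells. The stefin A genes Stfa1, Stfa2l1 and BC100530, inhibitors of cysteine proteases, were at 10.62, 9.70 and 11.33 in cell 11 and at 6.22, 7.73 and 7.41 in cell 14. In cells 6 and 8 these 3 genes were at 0.68 or less. They are near-identical copies, so the split of reads among them is uncertain. Ceacam10 was listed at 0 in cells 6 and 8 and reached 8.67 and 8.41 in cells 11 and 14. At 5 or more, a second combination joined cells 8 and 14. The chitinase-like gene Chil1 was at 7.94 and 9.25 there and 0.83 in cell 11. Lrg1 was at 6.07 and 7.77 against 0.53, and Stfa3 at 7.53 and 6.97 against 0. In cell 6 Chil1 was at 4.80, above the 3.77 reached in the other 10. Lrg1 was at 1.88 in cell 6, below the 3.51 reached in the other 10. The chemokine receptor gene Cxcr2 overlapped between the groups, at 5.10, 3.20, 4.49 and 3.08 in the 4 cells and 1.27 to 4.52 in the others. Padi4, whose enzyme citrullinates histones, was at 6.27 in cell 14 and at 0 in cells 6, 8 and 11. Over the 86 measured genes of the blood lists compared in this way (neutrophil, oxidase, pan-leukocyte and macrophage), 18 were at 5 or more in all 4 cells (20.9%, against 4.6% of all rows). Of these 18 genes, 10 were also at 5 or more in at least 5 of the other 10 cells, among them Cd63 and Anxa1 in all 10, and 5 were so in 2 or fewer. A further 18 of the 86 genes were at 5 or more in cells 11 and 14, and 20 in cell 14 alone. Another 9 were so in cells 8, 11 and 14, and 6 in cells 8 and 14. The remaining members of the 4 cells were below 5 in each case. The share of all rows with these partial combinations was not computed, so nothing is read from their counts.

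Of the phagocyte NADPH oxidase, which makes superoxide, 3 genes are given, each lowest in cell 6 among the 4 cells. Ncf4 was at 3.47, 8.52, 8.34 and 9.81 in cells 6, 8, 11 and 14, and at most 2.85 in the others. Rac2, the small GTPase of the complex in blood cells, was at 3.87, 5.12, 8.22 and 9.04, against at most 2.84. Both were higher in all 4 cells than in any other. Ncf1 was at 0.56, 3.72, 5.93 and 5.75, and overlapped the others through cell 6.

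**Figure D2:**
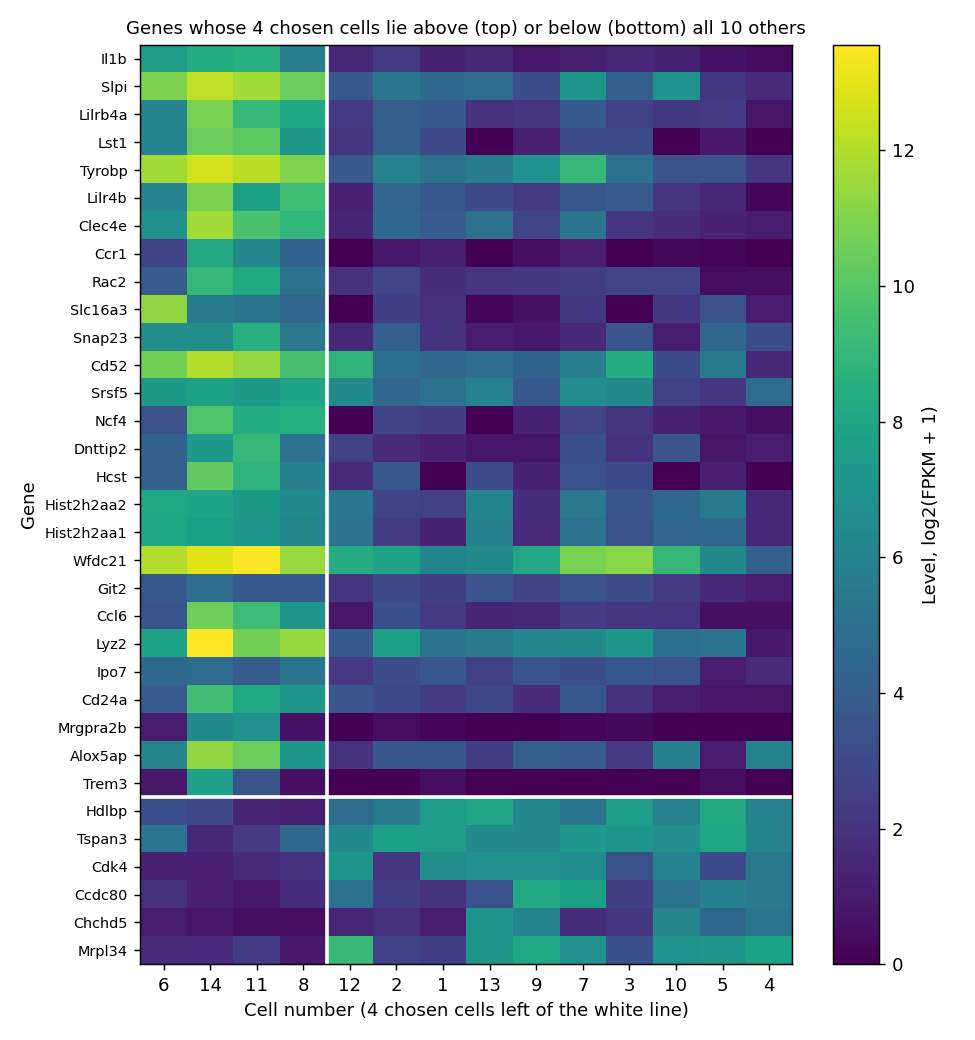
Levels, as colour on the log2(FPKM + 1) scale, of 27 genes higher and 6 genes lower in all 4 chosen cells (left of the white line) than in any other cell. Il1b and Slpi have the widest gaps, and cell 6 is the lowest of the 4 for several leukocyte genes such as Rac2 and Ncf4.

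General leukocyte genes showed which of the 4 cells carried a broad blood cell profile. Of 23 measured pan-leukocyte genes, 3 were higher in all 4 cells, namely Tyrobp, Cd52 and Alox5ap, and 20 had a median at least 1 higher. Over all rows, 0.315% were higher in all 4 cells and 17.8% had a median at least 1 higher. The median difference was 4.41, and it was 2.90 without cell 11 and likewise without cell 14. Tyrobp, the signalling adaptor DAP12, was at 11.67, 10.97, 12.14 and 12.65 in cells 6, 8, 11 and 14, and at 2.05, 5.14 and 9.09 for the lowest, median and highest of the others. Ptprc, the gene of the leukocyte antigen CD45, was at 0.50, 3.27, 8.31 and 6.51, and at most 1.21 in the others. Spi1, which encodes the myeloid transcription factor PU.1, was at 0, 5.51, 4.72 and 5.15, and at most 0.48 in the others. The integrin gene Itgb2 was at 1.80, 0.57, 7.09 and 7.70. Cell 6 therefore lay within the range of the other 10 cells for Ptprc, Spi1 and Itgb2, and above it for Tyrobp, Cd52 and Alox5ap. The list mean was 3.50, 4.67, 6.78 and 7.79 in cells 6, 8, 11 and 14, and 1.18 to 3.77 in the others, with cell 7 the highest of these.

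Macrophage and monocyte genes separated cell 14 from the other three. Of 14 measured genes, Lyz2 and Ccl6 were higher in all 4 cells, against 0.315% of all rows. Of the 14, 11 had their highest level in cell 14. The share of all rows highest in cell 14 was not computed, so nothing is read from the 11. Lyz2 (lysozyme), which neutrophils also express, was at 7.89, 11.40, 10.69 and 13.56, and at most 7.65 in the others. Ms4a6c was at 0.90, 1.73, 0.37 and 9.80. The cathepsin S gene Ctss reached 9.06 in cell 14, with 2.82, 2.76 and 2.08 in cells 6, 8 and 11. Ccr2, the receptor for monocyte recruitment, was at 5.31 in cell 14 and at most 0.49 elsewhere. Cell 14 had a list mean of 8.81, cells 6, 8 and 11 had 4.19, 4.62 and 3.96, and the others ranged over 1.68 to 3.37. The median difference over the list was 1.46, and 0.78 without cell 14. Of these 14 genes, 5, 6, 6 and 14 were at 5 or more in cells 6, 8, 11 and 14, and 1 to 4 in the others. Their part in the neutrophil values of cell 14 was not tested. The B cell genes differed little, with a median difference of -0.12 over 6 genes. Among the 4 cells Cd79a was above 0 in cell 11 alone, at 3.23. Igkc and Cd74 were at 4.18 and 4.48 in cell 11, and at 2.14 and 2.66 in cell 14. The other 10 cells reached similar levels, with Cd79a at 2.71 in cell 12, and Igkc and Cd74 at 4.10 and 4.13 in cell 13. T and NK cell genes were not analysed here.

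Genes outside the lists that were higher in all 4 cells included further myeloid genes. The inhibitory receptor genes Lilrb4a and Lilr4b, near-identical copies whose reads may be shared, were at 6.10, 7.99, 9.06 and 10.82 and at 6.03, 9.36, 7.71 and 10.91, and at most 4.10 and 4.43 in the others. Lst1 was at 6.09, 7.23, 10.14 and 10.44 and at most 4.13. Ccr1, a chemokine receptor gene, was at 2.74, 4.38, 6.26 and 8.18 and at most 1.21. Hcst, the adaptor DAP10, was at 4.18, 5.90, 8.76 and 10.25 and at most 3.67. In these 5 genes cell 14 was the highest and cell 6 the lowest of the 4. Other genes had no such order. The lactate transporter gene Slc16a3 was at 11.33 in cell 6 and at 4.48 to 5.62 in cells 8, 11 and 14, with at most 3.47 in the others. Snap23, a membrane fusion protein gene, was at 5.36 to 8.50 against at most 4.57, and the splicing factor gene Srsf5 at 7.37 to 7.94 against at most 6.70. Dnttip2, Git2, Ipo7, Cd24a and the copies Hist2h2aa1 and Hist2h2aa2 had gaps of 0.21 to 0.60.

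Stromal RNA was present in all 4 cells, at very different levels. The mean over 30 fibroblast matrix genes was 6.17, 5.48 and 5.77 in cells 6, 8 and 11, within the 4.74 to 7.68 of the other 10, and 3.18 in cell 14. It exceeded the pan-leukocyte mean in cells 6 and 8, by 2.67 and 0.81, and was below it in cells 11 and 14, the difference in cell 14 being -4.60. In the other 10 cells it was higher by 3.03 to 5.28. Cell 14 had 7 matrix genes at 5 or more, against 20, 15 and 17 in cells 6, 8 and 11 and 13 to 23 in the others. In 11 of the 30 genes the lowest level of all 14 cells was in cell 14, and the share of all rows lowest there was not computed.

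**Figure D3:**
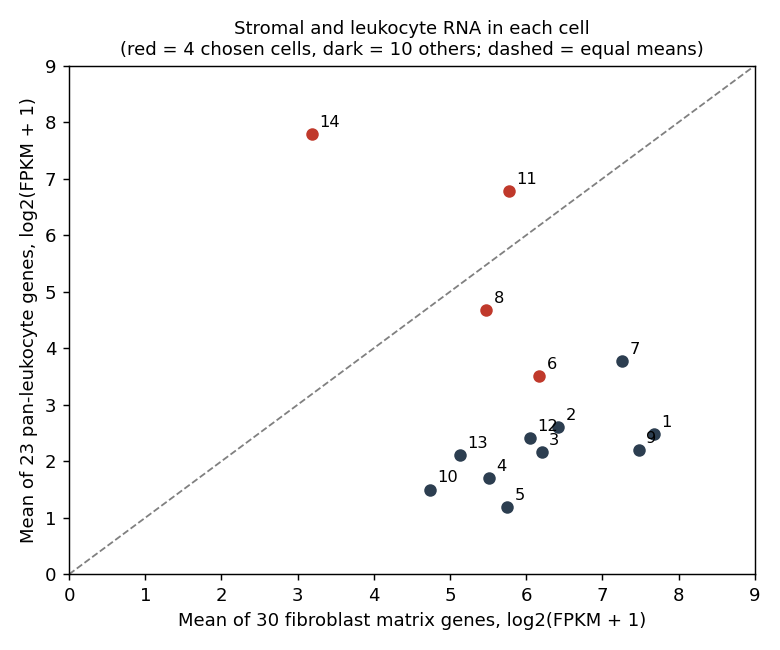
Mean level of 30 fibroblast matrix genes against that of 23 pan-leukocyte genes in each cell, both as log2(FPKM + 1), with equal means dashed. Cells 11 and 14 lie above the line, and cells 6 and 8 between it and the 10 others.

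Matrix genes were lower on balance in the 4 cells, but 0 of the 30 were lower in all of them. The median difference was -1.28, with 16 genes at least 1 lower and 5 at least 1 higher. Over all rows, 14.7% were at least 1 lower, 17.8% at least 1 higher and 0.0734% lower in all 4 cells. The 5 higher matrix genes were thus near the share over all rows. The collagen VI gene Col6a1 was at 4.25, 1.82, 2.01 and 1.50 in cells 6, 8, 11 and 14, and at 2.48, 6.31 and 8.05 for the lowest, median and highest of the others. The gelatinase A gene Mmp2 was at 5.16, 2.43, 4.76 and 2.05, against 4.48, 6.89 and 9.76. Ctsk, a collagen-degrading cathepsin gene of osteoclasts and stromal cells, was at 5.53, 2.01, 3.48 and 1.97, against 4.96, 7.70 and 9.32. In each of these 3 genes cell 6 was the highest of the 4 and reached the range of the others. Dcn (decorin) did not follow them, at 10.03, 14.58, 12.28 and 7.04, with 14.58 the highest value in the table, also reached in cells 2 and 7. The collagen XIV gene Col14a1 was higher in cells 6, 8 and 11, at 9.29, 5.54 and 5.53, with 1.36 in cell 14, and had a median of 1.62 in the others, whose highest level overlapped the 4 cells.

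Cells 6, 8 and 11 differed in the stromal genes found beside the blood genes. In cell 6 some osteoblast genes were high and others near 0. Ifitm5, a membrane protein gene of osteoblasts, was at 11.72 there and at 1.84, 2.72 and 1.58 in cells 8, 11 and 14. The osteoblast transcription factor gene Runx2 was at 6.46 in cell 6 and at 1.06 or less in the other three. Col1a1 was at 11.58, 3.68, 7.55 and 6.45, and Col11a2 at 9.96, 1.28, 0.71 and 1.78. Pdpn, a membrane glycoprotein gene of early osteocytes, was at 9.79 in cell 6 and at most 4.89 in the others. The osteoblast genes Alpl, Sp7 and Dlx5 were at 0.61, 0.52 and 0 in cell 6. The mean of 16 osteoblast genes was 5.70 in cell 6, with 2.65, 3.36 and 2.30 in cells 8, 11 and 14, and it was higher still in cells 10 and 13, at 7.40 and 6.97. Of the 16 genes 3 had their highest level of all 14 cells in cell 6, and the share of all rows highest there was not computed. The median difference over the list was -0.10.

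Cell 8 had the highest levels of Ly6a and Efemp1 of the 14 cells. Ly6a, the Sca-1 gene of immature stromal cells, was at 13.22 there and at 8.29, 10.67 and 7.22 in cells 6, 11 and 14. The fibulin-3 gene Efemp1 was at 10.71 in cell 8 against 6.85, 1.61 and 2.73, and reached 7.88 in the others. Gsn (gelsolin) was at 13.82 and Cd34 at 8.42, and in the other 10 cells these reached 13.56 and 8.75, both in cell 2. Cell 11 carried another set. The mesenchymal factor gene Twist1 was at 6.77 there and at 0.49, 1.06 and 1.63 in cells 6, 8 and 14. Pdgfrb and Pdgfra, the genes of the platelet-derived growth factor receptors of stroma, were at 5.89 and 6.55 in cell 11 and at most 0.38 and 3.71 in the other three. Thbs4, a matrix gene of tendon, was at 10.45 in cell 11 and at most 3.14 in the other three. The lymphoid cytokine gene Il7, made by marrow stroma, was at 7.09 in cell 11 and at most 1.25 in the other three. In the other 10 cells Pdgfrb, Pdgfra and Il7 reached 4.97, 6.23 and 5.50. Cell 11 was thus the highest for each, with the nearest level in another cell for Pdgfra.

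**Figure D4:**
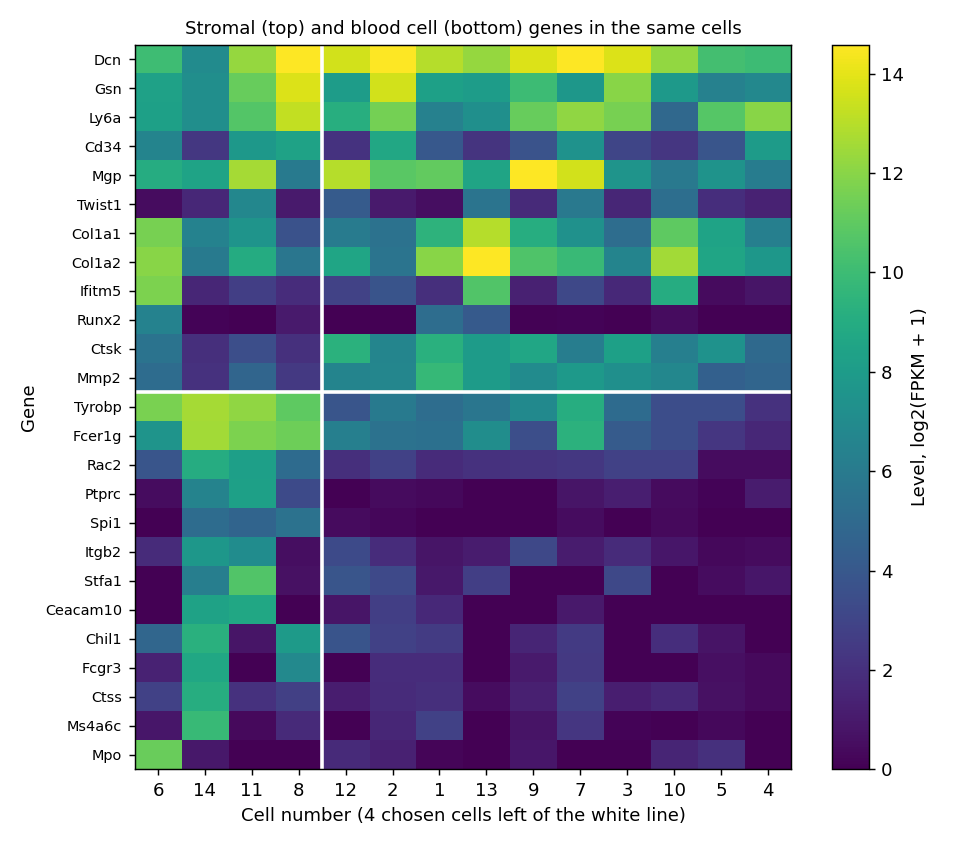
Levels, as colour on the log2(FPKM + 1) scale, of 12 stromal genes (top) and 13 blood cell genes (bottom) in the 14 cells, with the 4 chosen cells left of the white line. Cell 6 joins Ifitm5 and Runx2 with Mpo, cell 8 joins Ly6a and Dcn with Chil1, and cell 11 joins Twist1 and Mgp with Ptprc and Stfa1. Cell 14 has the lowest Dcn, Ctsk and Mmp2 of the 14 cells. Its Mgp, at 8.44, and Col1a1, at 6.45, are within the range of the other 10.

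Cell 14 had the lowest mean of the 14 cells over the fibroblast matrix, osteoblast, and stem and progenitor lists. Dcn was at 7.04 there, Serpinf1 at 4.29 and Bgn (biglycan) at 3.62, and the lowest of the other 10 cells had 9.97, 9.07 and 5.82. Its stem and progenitor mean was 1.78, against 3.46, 3.65 and 3.49 in cells 6, 8 and 11 and a range of 2.45 to 4.57 in the others. Prrx1, whose promoter drives the recombinase, was at 3.04, 3.78, 1.11 and 0.59 in cells 6, 8, 11 and 14, against 0.52, 4.04 and 7.31 for the lowest, median and highest of the others. The niche genes Cxcl12 and Lepr were at 2.35 and 2.31 in cell 14 and at 5.73 and 6.37 in cell 6. The chondrogenic factor gene Sox9 was below 1 in all 4 cells, with 0.94 in cell 6 the highest, and was detected in 7 of the other 10.

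The genes lower in all 4 cells were not list members. Hdlbp, a lipoprotein-binding RNA-binding protein gene, was at 3.33, 1.11, 1.40 and 2.99 in cells 6, 8, 11 and 14, and at 4.80, 6.15 and 8.26 for the lowest, median and highest of the others. The tetraspanin gene Tspan3 was at 5.32, 4.54, 2.25 and 1.57, against 6.04, 6.95 and 7.98. The cyclin-dependent kinase gene Cdk4 was at 1.25, 1.94, 1.68 and 1.20, against 2.08, 6.30 and 7.07. Ccdc80, a secreted matrix protein gene, was at 1.88, 1.76, 0.91 and 1.17, against 1.99, 5.06 and 8.20. The mitochondrial ribosomal protein gene Mrpl34 was at most 2.41 in the 4 cells and 2.50 to 9.16 in the others. Chchd5, of the mitochondrial intermembrane space, was at most 1.04 and 1.13 to 7.13. The gap was widest for Hdlbp, at 1.46, followed by Tspan3, at 0.72.

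**Figure D5:**
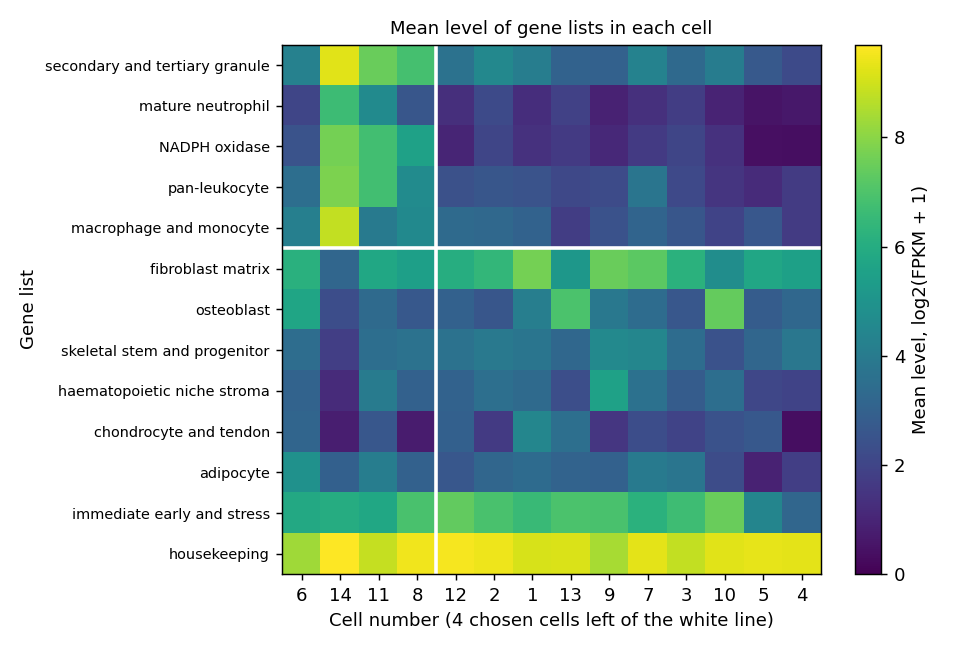
Mean level of 13 gene lists in each cell, as colour on the log2(FPKM + 1) scale, with blood lists above and stromal and general lists below the horizontal line. Cell 14 has the highest means of the 5 blood lists drawn and the lowest fibroblast matrix mean, and cell 6 has the highest osteoblast mean of the 4 chosen cells.

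Within the other 10 cells, the score varied in part with some blood lists, and also with some lists outside blood. Over these 10 cells the Spearman correlation with the score was 0.70 for the pan-leukocyte mean and 0.67 for the neutrophil genes outside the score. For the macrophage list it was 0.66, and for the fibroblast matrix list 0.44. Lists outside blood reached 0.55 (endothelial) and 0.54 (immediate early and stress). Some other blood lists were lower, at 0.44 (NADPH oxidase), 0.24 (MHC class II), 0.14 (primary granule and early myeloid) and 0.12 (B cell). These are descriptions, since the cells share a library method and normalization, and cell 4, with the lowest score, was also low for many other lists. Over all 14 cells the genes most like the score were Il1b (0.92), the decoy receptor gene Il1r2 (0.91), Cd53 and the chemokine gene Ccl3 (both 0.90) and Cd24a (0.89). Il1r2 was at 9.26, 5.03, 10.16 and 9.42 in cells 6, 8, 11 and 14 and at 0.47 to 6.02 in the others, so the groups overlapped. The genes least like the score were Tsen34 (-0.85), Vps25 (-0.83) and Rwdd1 (-0.81).

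In the larger set by genes at 0, cells 6, 8 and 14 faced 6 others. The median difference there was 2.35 for the neutrophil genes outside the score, 2.75 for pan-leukocyte genes, 2.15 for macrophage genes and -2.77 for fibroblast matrix genes. Over all cells these were 2.76, 4.41, 1.46 and -1.28. The smaller set held 1 of the 4 cells, so no value is given for it. The genes Acp5, Cd79a, Igkc and Cd74 were at 0 in cells 6 and 8 and highest among the 4 in cell 11. Each of these genes was also above 0 in cells 3, 4, 12 and 13, the other cells of the smaller set. Only Acp5 was at 0 in all cells of the larger set. There, cell 7 had Cd79a, Igkc and Cd74 at 1.64, 2.16 and 0.90, and cell 14 had Igkc and Cd74 at 2.14 and 2.66. Cd74 was also above 0 in cells 2 and 9. The part of the sets in this was not tested.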

How the data were processed

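The deposited table holds one value per gene and cell for 14 single cells. SMART-Seq v4 3' and Nextera XT kits were used, per the labels' protocols. The submitters' processing notes list TopHat2, Cufflinks and GRCm38 without versions or roles. The values deposited by the authors are on a log2 scale and are read here, from the values, as log2(FPKM + 1) after quantile normalization, since every cell has the same maximum of 14.58. FPKM divides by length, which 3' reads do not follow, so levels are compared within genes. Equal distributions hide differences in RNA content, and depth is unknown. The table has 9558 rows. The first row of each of 9542 symbols was used. The authors' choice of rows is not stated. S100a8 and S100a9 were not analysed here, and a few genes are not reported here. Of 360 genes in the lists outside the score, 272 had a row, and 0 value columns were left unmatched.

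The members, lists and rules were chosen with earlier results of these data known. A row was counted as higher or lower when the 4 cells did not overlap the other 10. Detected means 1 or more. Named genes are list members, the 15 others with the widest gap in each direction, the 10 most and 10 least like the score by Spearman correlation (detected in at least 7 cells) and the 8 genes each chosen cell led by the most. Ribosomal, mitochondrial, predicted and small RNA symbols were left out. Computations used Python 3.11.15, pandas 2.3.3 and scipy 1.17.1, and the counting was tested on simulated data. Gene positions are from GENCODE M21 (GRCm38). Alternatives are in the closing section.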

Additional observations from a re-analysis of the deposited data

Results flagged for a closer look

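Means of gene lists with at least 3 measured genes were examined for a single cell far from the rest, within the 4 chosen cells and within the other 10. Of 46 such comparisons 3 met the criterion, and chance alone flags about 1 in 20. The macrophage and monocyte mean of cell 14 was 8.81, with the next of the 4 at 4.62. The skeletal stem and progenitor mean of cell 14 was 1.78, with the next lowest of the 4 at 3.46. Among the other 10 cells, the haematopoietic niche mean of cell 9 was 5.55, with the next highest at 3.61.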

How the results depend on the processing

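No test was run, so the alternatives show only how far values move. A cutoff of 7 and a score without Mpo and Elane chose the same 4 cells. A cutoff of 8 left 3 cells and gave 52 higher rows, 13 lower rows, a neutrophil median difference of 3.51 and 1 cell with matrix above leukocyte mean. Within the larger set by rows at 0, where 3 cells faced 6, there were 140 higher and 115 lower rows, and the pan-leukocyte, macrophage and matrix differences were 2.75, 2.15 and -2.77. Fewer cells compared make separation easier. Keeping rows at 1 or more in at least 4 cells gave 3.55 for the neutrophil genes. On a log2(FPKM + 10) scale the neutrophil and pan-leukocyte differences were 1.45 and 1.99. Differences of means gave 3.54 for pan-leukocyte and 2.52 for macrophage genes. Ranking the values again without the blood or the stromal genes kept every value computed that way within the spread of the cells, with 30 higher and 6 lower rows.

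Leaving out each cell in turn gave 31 to 107 higher rows, 9 to 35 lower rows and 1 to 2 cells with matrix above leukocyte mean. The median differences ranged from 0.96 to 4.44 (neutrophil), 2.90 to 5.26 (pan-leukocyte), 0.78 to 1.93 (macrophage), -1.89 to -0.99 (matrix) and -0.57 to 0.11 (osteoblast). The osteoblast difference was so close to 0 that its sign depended on the cells kept. No paired analysis was possible because the labels form 1 group. Depth is unknown, so values at 0 are given only as listed at 0.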

Other observations

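Chemokine genes that attract neutrophils and an interferon regulator gene were also uneven. Cxcl2, a neutrophil chemoattractant gene, was at 8.86, 11.21, 11.92 and 13.22 in cells 6, 8, 11 and 14 and reached 10.09 in cell 5 of the others, whose median was 5.28. Cxcl3 was at 1.47, 7.61, 6.58 and 9.13, with a median of 1.38 and a highest level of 7.55 in the others. Cxcl1, of the same family, did not follow, at 7.25, 7.47, 10.34 and 3.65, and was highest in cell 3 at 14.58. That regulator gene, Irf7, was at 6.00 in cell 11 and 4.44 in cell 14, at 0 in cells 6 and 8, and at most 1.94 in the others. The lipid droplet gene Plin2 was at 4.62, 6.11, 6.98 and 9.23, against a median of 2.69 and a highest level of 7.78 in the others.

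Each of the 4 cells also held genes far above their level in the other 13. The other 10 cells were not searched in this way, and such genes were not particular to the 4. Pf4, for example, was at 8.47 in cell 13 with 2.22 next. Cell 14 had the cytokine genes Tnf at 8.87 and Ifnb1 at 9.11, with next highest levels of 2.40 and 2.46, and the lectin receptor gene Clec4a3 at 7.72 with 0.85 next. Cell 11 had Bst1, an ectoenzyme gene of myeloid and stromal cells, at 8.14 with 1.70 next. Cell 6 had the thyrotropin receptor gene Tshr at 10.21 with 1.11 next, Calcb at 10.08 with 0.97 next, and the mitochondrial carrier gene Slc25a12 at 12.96 with 4.81 next. Over the 45 neutrophil genes outside the score, the Spearman correlation across genes, which are not independent, was 0.80 between cells 6 and 8 and 0.37 between cells 6 and 11.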
